A study of Mus musculus with 24 samples.

Results

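Tumour-resident macrophages of MHCIIlow surface phenotype were compared here with those of MHCIIhi phenotype from the same tumours. The comparison took the 3 libraries of F4/80hi MHCIIlow cells and the 3 libraries of F4/80hi MHCIIhi cells from colon tumours, 6 of the 24 libraries of the series, and covered all genes of the deposited table. Both subsets were sorted from pools I, V and VII, so each pool occurred on both sides. The tumours came from Apc Min/+ mice on a C57BL/6J background, males and females, which carry a germline Apc mutation and form intestinal adenomas. These mice had received 1.5% (w/v) dextran sodium sulphate, a colitogenic polymer, in drinking water for 1 week and were killed 4 weeks later, at 3 to 4 months of age. Each library held RNA of cells from the pooled tissue of 13 to 15 mice, so that a replicate is a pool and differences between single mice or adenomas are averaged out. Both subsets carried the same allele and had the same treatment, and the model is one of adenomas accelerated by colitis. The corresponding MHCIIhi and MHCIIlow macrophages from colon lamina propria (LP) of C57BL/6J mice, 3 libraries each, shared no library with the tumour comparison and served for a test of whether a subset effect differed between tissues. The LP donors lacked the Apc mutation, and by the study's methods C57BL/6J controls drank a lower concentration of the same polymer, although the labels call this LP healthy, so tissue, genotype and dose cannot be told apart.

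F4/80hi CD11b+ cells are the resident macrophages of the gut wall. MHC class II molecules on such cells present peptides of extracellular origin to CD4+ T cells, and their amount on the surface divides the population. Production of these molecules is governed by the coactivator CIITA, which works with factors that bind the X and Y boxes of class II promoters. Macrophages with little surface MHC class II are common in many tumours, where they have been associated with poorly oxygenated areas, arginase activity and glycolysis.

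The 6 libraries held from 18.6 to 35.9 M gene reads. The gate used an antibody against MHC class II, so the class II transcripts check the labels and are no finding. H2-Ab1 (ENSMUSG00000073421, 17:34257689-34269419 in GRCm38), a class II beta chain, stood at 13.22, 12.58 and 11.95 log2 RPKM (reads per length of gene and size of library) in the MHCIIhi libraries of pools I, V and VII and at 11.05, 10.46 and 8.49 in the MHCIIlow libraries. All 3 MHCIIlow values lay below all 3 MHCIIhi values, as the labels require, and above the mean of 7.88 in tumour monocytes. Adgre1, which encodes F4/80, stood at 8.43, 8.62 and 8.88 log2 RPKM in MHCIIhi and at 7.95, 8.21 and 8.10 in MHCIIlow libraries, a difference of -0.56 that did not pass the test (adjusted p = 0.184). Itgam, which encodes CD11b, overlapped between the subsets, but 66.3% of the 51-base stretches of its transcripts also occur in other genes. The summed level of 12 macrophage markers was 16257 to 24474 RPKM in MHCIIhi and 18391 to 25192 RPKM in MHCIIlow libraries. Monocyte markers summed to 12.6 to 15.5 and 10.6 to 22.1 RPKM, against at least 3518 RPKM in sorted tumour monocytes, and neutrophil markers to 39.2 to 53.0 and 47.0 to 57.1 RPKM, against at least 25318 RPKM in tumour neutrophils. B and plasma cell markers summed to 65.1, 92.0 and 98.5 RPKM in MHCIIhi and to 43.9, 52.1 and 284 RPKM in MHCIIlow libraries of pools I, V and VII, so MHCIIlow VII stood apart. Across genes, the log2 RPKM of the 6 libraries correlated with r from 0.864 to 0.923, and libraries of the same subset (0.890 to 0.923) overlapped in r with libraries of the same pool (0.895 to 0.914). On the first principal component of the 6 libraries (29.7% of the variance) neither subset was separate. MHCIIhi VII stood at one end (111.31) and MHCIIlow I at the other (-84.19), with the other libraries from -34.91 to 17.86. MHCIIhi VII also had the fewest genes above 3 reads, 13541 against 14081 to 14853 in the other libraries compared. On the second component (24.5%) the MHCIIlow libraries stood at -6.87, 84.26 and 52.64 and the MHCIIhi libraries at -74.31, -13.78 and -41.93.

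Of 12878 genes tested, 73 rose (0.567%) and 73 fell (0.567%) in MHCIIlow against MHCIIhi tumour macrophages, together 1.13% of the genes tested. The test was limma on the log2 RPKM of all 24 libraries, with p-values adjusted by the Benjamini-Hochberg method over all genes tested and called below 0.05, as everywhere below. In all 146 called genes the 3 libraries of either subset did not overlap. Over all genes tested, 8.26% had 3 MHCIIlow libraries above all MHCIIhi libraries and 9.32% had them below, and these shares are the background for the counts of every gene list. At least 2-fold changes were found in 57 of the genes that rose and 29 of those that fell, and the log2 fold changes ran from 0.60 to 8.53 and from -0.51 to -6.80. Among the 12496 genes with more than 3 reads in at least 1 of the 6 libraries the median log2 fold change was 0.012, and 50.9% were higher in MHCIIlow cells. At an unadjusted p under 0.05 there were 675 higher and 767 lower genes.

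How many genes passed depended on how the spread was estimated. With the pool as a block, 145 genes rose and 159 fell, and 140 of the 146 calls were kept. With only the 6 libraries in the fit, 2 genes rose and 2 fell (1525 at an unadjusted p under 0.05), and with the block on those 6 libraries no gene passed in limma (2018 at an unadjusted p under 0.05). The calls therefore rest on the spread shared with the other libraries of the series. Leaving out MHCIIlow V left 21 genes that rose and 10 that fell, leaving out MHCIIhi VII left 34 and 24, leaving out MHCIIhi I left 50 and 19, leaving out MHCIIlow VII left 59 and 25, leaving out MHCIIhi V gave 99 and 50, and leaving out MHCIIlow I gave 55 and 120. In bulk samples, fewer cells of a type that express a gene and less RNA of it per cell cannot be told apart.

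**Figure D1:**
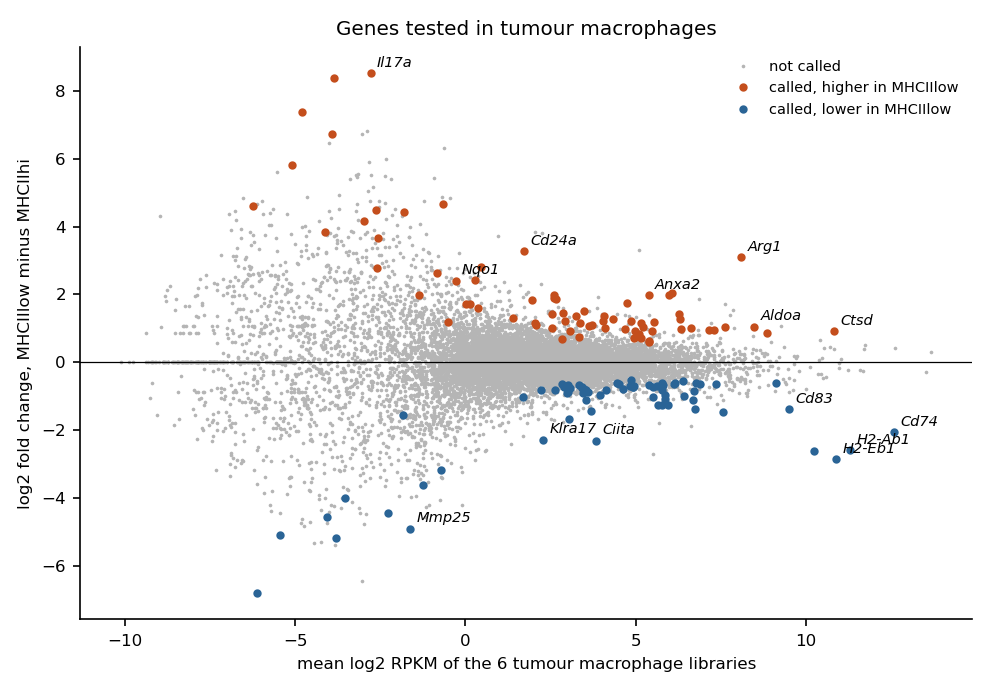
Log2 fold change (MHCIIlow minus MHCIIhi, vertical axis) against the mean log2 RPKM of the 6 tumour macrophage libraries (horizontal axis) for the 12878 genes tested. Each point is a gene, orange for the 73 that rose, blue for the 73 that fell and grey for those that did not pass the test. The class II genes H2-Ab1, H2-Eb1 and Cd74 are among the genes of the highest level, and points far to the left rest on few reads.

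The MHC class II list held 11 genes. Of these, 6 fell (54.5% against 0.567% of all genes for falls) and none rose, with a median log2 fold change of -2.06 beside 0.012 for the genes above 3 reads. Because the gate chose cells by class II protein, the falls of the class II chains check the labels and are no finding. Ciita (ENSMUSG00000022504, 16:10480059-10528418), the coactivator of class II transcription, stood at 5.07, 4.84 and 5.07 log2 RPKM in MHCIIhi and at 3.22, 2.67 and 2.18 in MHCIIlow libraries. It did not overlap between subsets, fell by 2.30 on the log2 scale (SE 0.36, adjusted p = 0.00364) and kept its call when any single library was left out. The class II chains H2-Eb1, H2-Aa and H2-Ab1 fell by 2.85, 2.61 and 2.58 on the log2 scale, or 7.22-, 6.10- and 5.99-fold. Cd74, the invariant chain that guides class II molecules to the endosome, had values of 14.25, 13.74 and 12.83 against 12.35, 11.88 and 10.41 and fell by 2.06 (SE 0.47, adjusted p = 0.039). H2-DMb1, a subunit of the peptide exchange factor, fell by 1.46 (adjusted p = 0.0438), and H2-DMa, its partner, fell under the block alone. With the block 7 genes of the list fell, beside 159 of the 12878 genes tested. MHCIIlow VII had the lowest value of all 6 libraries for each of these class II chains and for Cd74. The list lost calls with 1 library less, to 1 gene without MHCIIhi I, MHCIIhi V, MHCIIlow V or MHCIIlow VII and to 3 without MHCIIhi VII. The summed dendritic cell markers also moved with the subset, at 20.8, 23.4 and 13.6 RPKM in MHCIIhi and 9.34, 10.3 and 9.18 RPKM in MHCIIlow libraries. Of these 11 markers 8 were tested and none passed. Their median was -1.04, and 6 were lower and 2 higher in MHCIIlow cells. Without overlap 25.0% were lower, against 9.32% of all genes, and none was higher. Flt3, a member of this list, had at most 12 reads in any of the 6 libraries. The part of dendritic cell RNA in the class II values was not tested.

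Promoters are shown for H2-Eb1 and H2-Aa because a Y box is the binding site of one of the factors that recruit CIITA. The windows are from RefSeq on GRCm38.p6, run from 250 bases before to 50 bases after the annotated start, and are printed 5′ to 3′ on the strand of the gene, with each match to the Y box core ATTGG or its reverse complement CCAAT in capitals. The first is 17:34305617-34305916 on the plus strand and the second 17:34287774-34288073 on the minus strand.
H2-Eb1: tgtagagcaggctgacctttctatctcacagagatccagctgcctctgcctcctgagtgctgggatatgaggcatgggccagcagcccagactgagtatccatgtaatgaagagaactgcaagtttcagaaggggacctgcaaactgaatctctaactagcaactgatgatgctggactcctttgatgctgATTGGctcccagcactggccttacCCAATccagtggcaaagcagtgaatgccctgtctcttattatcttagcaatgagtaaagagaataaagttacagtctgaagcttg
H2-Aa: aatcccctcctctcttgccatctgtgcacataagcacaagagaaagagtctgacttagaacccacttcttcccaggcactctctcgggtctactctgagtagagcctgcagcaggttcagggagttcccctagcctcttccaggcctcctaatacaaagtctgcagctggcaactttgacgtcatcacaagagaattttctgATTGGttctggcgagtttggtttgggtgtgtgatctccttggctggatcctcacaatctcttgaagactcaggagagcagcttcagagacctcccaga
The core was found in the windows of 8 of the 8 class II genes that matched the table, and of 41.1% of all 27025 genes with a window. Such a match is a description of the letters, not a site of binding.

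The genes that rose most among called genes averaging 10 RPKM or more in the higher subset were led by Cd24a, Arg1 and Cxcl3, followed by Anxa2, Capg, Plp2, S100a10, Gpnmb, Acot7, Pdpn, Ddit4 and Rnf128. Arg1 (ENSMUSG00000019987, 10:24915221-24927484), arginase 1, which splits arginine into ornithine and urea, stood at 6.53, 7.07 and 6.01 log2 RPKM in MHCIIhi and at 10.13, 9.75 and 9.03 in MHCIIlow libraries. The gap between the subsets exceeded the range within either. Arg1 rose by 3.10 on the log2 scale, or 8.58-fold (SE 0.57, adjusted p = 0.0102), and missed the threshold without MHCIIhi VII or MHCIIlow V (adjusted p 0.0536 to 0.061). Cd24a, a small anchored surface glycoprotein, stood at 0.73, 2.19 and -2.67 against 3.90, 3.48 and 2.68 log2 RPKM, from 8 to 367 reads in MHCIIhi and 324 to 887 in MHCIIlow libraries. It rose by 3.27 (SE 0.75, adjusted p = 0.0394), with MHCIIhi VII far below the other libraries, and the call was kept only without MHCIIhi V (adjusted p 0.0586 to 0.123 without any other library). Cxcl3, a chemokine for neutrophils, rose by 2.04 (adjusted p = 0.0425, with 0.06 to 0.202 without MHCIIhi I, MHCIIhi VII, MHCIIlow I or MHCIIlow V). Cd24a is abundant in neutrophils and also occurs in epithelium, and its mean in sorted tumour neutrophils was 9.78 log2 RPKM. Of the 10 neutrophil markers 7 were higher in MHCIIlow cells, 4 of them without overlap (40.0% against 8.26% of all genes), and the median was 1.89, although their summed level overlapped between the subsets. None rose by the test, and Csf3r, the receptor for granulocyte colony stimulating factor and the marker with most reads, fell by 0.74. Mmp8, the neutrophil collagenase, had 88, 454 and 118 reads in MHCIIhi against 769, 1423 and 497 in MHCIIlow libraries, while Camp, a granule peptide, had 0 reads in all 6. Epithelial markers summed to 73.8, 37.6 and 9.91 RPKM in MHCIIhi and to 223, 15.8 and 32.0 RPKM in MHCIIlow libraries, and none of the 9 tested was called. MHCIIhi VII was lowest and MHCIIlow I highest for both Cd24a and the epithelial sum, and the order of the other libraries differed between them. The part of neutrophil and epithelial RNA in the Cd24a result was not tested.

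Some risers kept the call whichever single library was left out, although none of those in this paragraph passed with only the 6 libraries in the fit. Anxa2 (ENSMUSG00000032231, 9:69453620-69491795), a calcium-dependent membrane binding protein that also serves as a platform for plasminogen activation, stood at 4.54, 4.91 and 3.72 against 6.38, 6.65 and 6.11 log2 RPKM and rose by 1.99, or 3.97-fold (SE 0.23, adjusted p = 0.000347). Capg, an actin filament capping protein of macrophages, stood at 5.01, 5.46 and 4.48 against 6.81, 7.41 and 6.66 and rose by 1.98 (SE 0.26, adjusted p = 0.000731). For both, the subsets were clearly apart, with MHCIIhi VII lowest and MHCIIlow V highest. Acot7, a thioesterase of fatty acyl-CoA, rose 2.83-fold (SE 0.25 on the log2 scale, adjusted p = 0.00532). Plp2, a membrane protein, rose by 1.97 (SE 0.29, adjusted p = 0.00236), but 58.8% of its 51-base stretches occur in other genes. Tes, a focal adhesion protein outside the rule for named genes, stood at 3.56, 3.98 and 3.53 against 4.86, 5.17 and 4.84 and rose by 1.26 (SE 0.15, adjusted p = 0.000347).

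S100a10, the partner of annexin A2, stood at 1.87, 1.36 and 1.91 against 3.74, 3.48 and 3.51 log2 RPKM and rose by 1.87 (adjusted p = 0.0221, with 0.0506 to 0.073 without each library other than MHCIIlow I). Gpnmb, a glycoprotein of phagocytes that handle lipid and debris, rose by 1.76 (adjusted p = 0.0256, with 0.0602 to 0.1 without MHCIIhi V, MHCIIhi VII, MHCIIlow I or MHCIIlow V). Pdpn, podoplanin, a mucin-type ligand of the platelet receptor CLEC-2, stood at 5.53, 6.19 and 4.98 against 7.14, 7.20 and 6.63 and rose by 1.42 (adjusted p = 0.00657, with 0.0536 without MHCIIlow V). Ddit4, an inhibitor of mTORC1 induced by stress, and Rnf128, a ubiquitin ligase, rose by 1.38 and 1.36 (adjusted p = 0.0412 and 0.0369). Without single libraries Ddit4 lost its call in 4 of 6 fits (MHCIIhi VII and each MHCIIlow library, 0.0679 to 0.193), and so did Rnf128 (MHCIIhi I, MHCIIhi VII, MHCIIlow V and MHCIIlow VII, 0.0902 to 0.155).

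**Figure D2:**
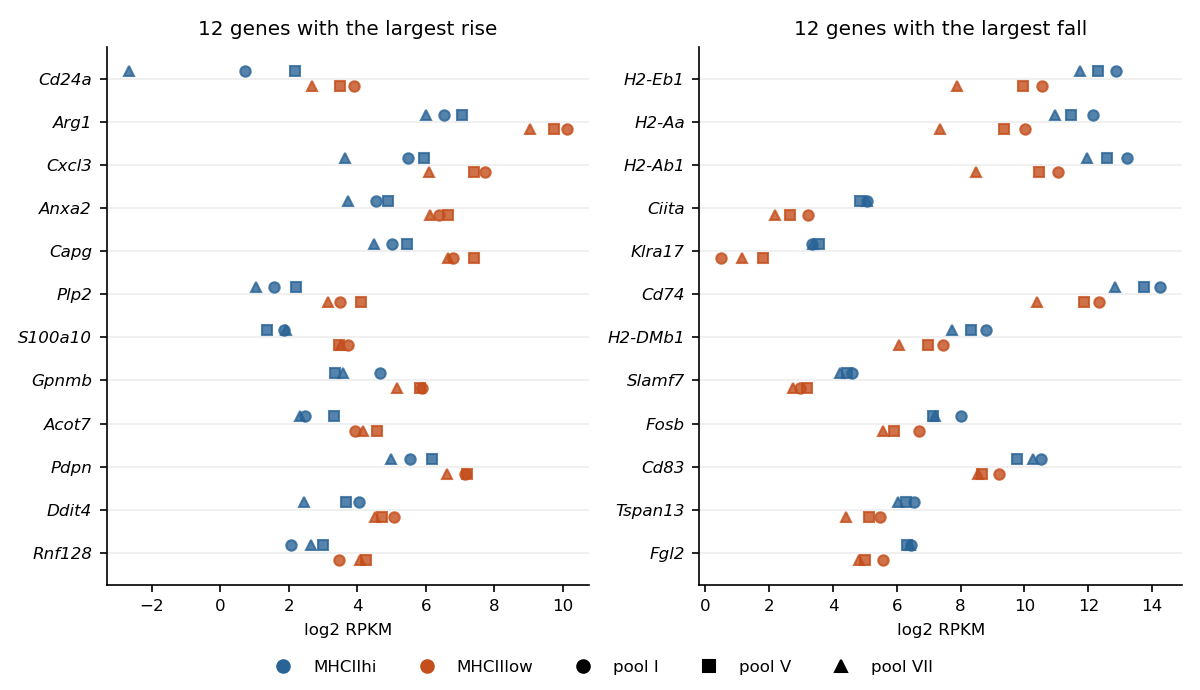
Log2 RPKM (horizontal axis) of the 12 genes with the largest rise (left) and the 12 with the largest fall (right) among called genes whose higher subset averaged 10 RPKM or more. Each point is a library, blue for MHCIIhi and orange for MHCIIlow, with a circle for pool I, a square for pool V and a triangle for pool VII. The subsets do not overlap for any of the 24 genes, and the spread within a subset is widest for Cd24a, from -2.67 to 2.19 in MHCIIhi.

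By the same limit of 10 RPKM, the largest falls beyond the class II genes were those of Klra17, Slamf7, Fosb, Cd83, Tspan13 and Fgl2, and called genes of lower level fell further. Klra17, a receptor of the Ly49 family, stood at 3.36, 3.56 and 3.37 log2 RPKM in MHCIIhi and at 0.50, 1.79 and 1.15 in MHCIIlow libraries and fell by 2.28 (SE 0.47, adjusted p = 0.025, with 0.0538 to 0.0694 without each library other than MHCIIlow V). Cd83 (ENSMUSG00000015396, 13:43784775-43803132), an activation marker that stabilizes surface class II and CD86, stood at 10.53, 9.77 and 10.26 against 9.21, 8.67 and 8.53 and fell by 1.38, or 2.61-fold (SE 0.25, adjusted p = 0.00975, with 0.0513 to 0.061 without MHCIIhi I or MHCIIlow V). Fosb, an immediate early AP-1 subunit, stood at 8.00, 7.12 and 7.21 against 6.71, 5.90 and 5.57 and fell by 1.39 (SE 0.25, adjusted p = 0.01). Fgl2, a fibrinogen-like protein with prothrombinase activity, stood at 6.44, 6.32 and 6.41 against 5.56, 5.00 and 4.83 and fell by 1.26 (SE 0.22, adjusted p = 0.00822, with 0.0594 without MHCIIlow V). Slamf7, a SLAM family receptor, fell by 1.45 (adjusted p = 0.0427) but lost its call without any single library (0.0814 to 0.153). Tspan13, a tetraspanin, fell by 1.26 (adjusted p = 0.0365, with 0.0558 to 0.157 without each library other than MHCIIlow I), and Fosb missed the threshold without MHCIIhi I, MHCIIlow V or MHCIIlow VII (0.0509 to 0.0665).

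At each step of glycolysis from aldolase to pyruvate kinase at least 1 enzyme rose in MHCIIlow cells. Of 20 enzymes tested, 8 rose and none fell (40.0% called, beside 0.567% of all genes for rises), 16 had a positive fold change and the median was 0.67. In 14 enzymes (70.0% against 8.26% of all genes) all MHCIIlow libraries lay above all MHCIIhi libraries and in 1, Hk2, all lay below (5.00% against 9.32%). Aldoa (ENSMUSG00000030695, 7:126795234-126800751), aldolase A, stood at 8.15, 8.27 and 7.42 log2 RPKM in MHCIIhi and at 8.99, 9.17 and 8.84 in MHCIIlow libraries and rose by 1.05, or 2.07-fold (SE 0.19, adjusted p = 0.0101). Eno1, enolase 1, stood at 5.98, 6.47 and 5.91 against 6.91, 7.42 and 7.10 and rose by 1.02 (SE 0.16, adjusted p = 0.00364). Pgk1, phosphoglycerate kinase 1, stood at 4.74, 5.06 and 4.31 against 5.66, 5.95 and 5.58 and rose by 1.03 (SE 0.17, adjusted p = 0.0043). In each of these 3 enzymes MHCIIhi VII was the lowest library and MHCIIlow V the highest.

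The other called enzymes of the pathway were Tpi1 (triose phosphate isomerase, 0.95), Gapdh (glyceraldehyde phosphate dehydrogenase, 0.95), Pgam1 (phosphoglycerate mutase, 0.73), Pkm (pyruvate kinase of muscle and most tissues, 0.85) and Eno1b (1.01). Eno1b shares 85.0% of its 51-base stretches with other genes, so its reads may belong to Eno1. The corresponding shares were 53.8% for Pgk1, 36.1% for Pgam1, 25.9% for Eno1, 25.4% for Pkm and 25.0% for Gapdh, and these values are uncertain in that measure. Ldha, lactate dehydrogenase A, stood at 8.24, 8.27 and 7.64 against 8.78, 8.93 and 8.75, with a difference of 0.77 that missed the threshold (adjusted p = 0.0587) and passed it with the pool as a block (0.0424). The platelet type phosphofructokinase Pfkp, with 0.57 (adjusted p = 0.113), was the other enzyme called under the block alone (0.0315). Hk2, hexokinase 2, which phosphorylates glucose in the first step, lay on the other side and stood at 5.61, 5.19 and 5.05 against 5.04, 4.77 and 4.42, a difference of -0.54 that did not pass (adjusted p = 0.239). Slc16a3, the lactate exporter MCT4, stood at 4.62, 4.72 and 4.18 against 5.45, 5.68 and 5.12 and rose by 0.91 (SE 0.18, adjusted p = 0.0188, with 0.0907 to 0.0995 without MHCIIhi VII or MHCIIlow V). Pygl, glycogen phosphorylase, rose by 1.11 (SE 0.19, adjusted p = 0.00707, with 0.061 without MHCIIlow V), while Slc2a1, the glucose transporter GLUT1, overlapped between the subsets (0.37, adjusted p = 0.351). Within pools I, V and VII the median difference of the 20 enzymes was 0.61, 0.62 and 0.94. The count of 8 calls in the list became 2 without MHCIIlow V, 3 without MHCIIhi VII and 5 without MHCIIhi I, and Eno1 and Pgk1 were called in all fits with 1 library less.

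**Figure D3:**
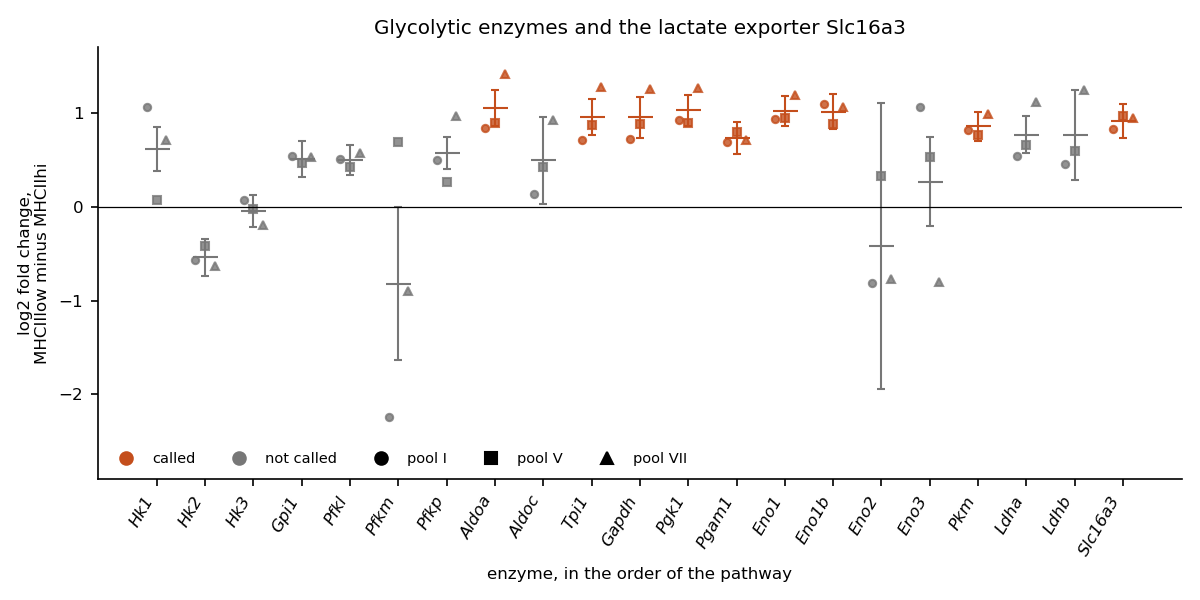
Log2 fold change (MHCIIlow minus MHCIIhi, vertical axis) of 20 glycolytic enzymes in the order of the pathway and of the lactate exporter Slc16a3. Horizontal bars are the fitted values with the SE as error bars, symbols are the differences within pools I (circle), V (square) and VII (triangle), and orange marks genes that passed the test. From Aldoa to Pkm all called enzymes lie between 0.73 and 1.05 and all pools are above 0, whereas Hk2 lies at -0.54.

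Promoters of Pgk1 and Eno1, the glycolytic enzymes that kept their call whichever single library was left out, are shown with the core of the hypoxia response element, the sequence to which HIF factors bind. The windows are of the same kind as those of the class II genes, and capitals mark ACGTG or GCGTG on either strand (CACGT or CACGC when read on the other strand). The third, Bnip3, is a mitophagy receptor of the hypoxia list. The positions are X:106186850-106187149 on the plus strand, 4:150236458-150236757 on the plus strand and 7:138909457-138909756 on the minus strand.
Pgk1: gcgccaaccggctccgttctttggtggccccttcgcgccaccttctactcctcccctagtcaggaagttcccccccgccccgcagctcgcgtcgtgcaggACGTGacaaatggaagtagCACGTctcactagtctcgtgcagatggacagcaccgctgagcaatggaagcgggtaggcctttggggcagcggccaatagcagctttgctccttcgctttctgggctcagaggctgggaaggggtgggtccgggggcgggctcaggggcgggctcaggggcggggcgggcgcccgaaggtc
Eno1: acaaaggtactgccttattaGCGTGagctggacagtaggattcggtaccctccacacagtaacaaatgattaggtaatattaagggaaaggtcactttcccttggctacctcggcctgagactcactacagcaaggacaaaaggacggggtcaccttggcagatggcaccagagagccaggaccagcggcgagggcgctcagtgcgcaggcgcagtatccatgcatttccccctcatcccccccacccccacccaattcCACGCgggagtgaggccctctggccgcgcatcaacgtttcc
Bnip3: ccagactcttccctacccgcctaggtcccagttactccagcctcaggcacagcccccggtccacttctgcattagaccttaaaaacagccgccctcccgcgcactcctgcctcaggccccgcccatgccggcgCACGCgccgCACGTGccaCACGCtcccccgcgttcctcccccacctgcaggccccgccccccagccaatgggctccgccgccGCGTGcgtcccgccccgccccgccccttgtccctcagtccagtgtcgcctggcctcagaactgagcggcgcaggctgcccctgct
The core was present in the windows of 16 of 19 glycolysis genes and 25 of 28 hypoxia genes that matched the table, and in those of 46.7% of all 27025 genes. The windows shown hold 2, 2 and 5 matches, some of which overlap, and for Eno1, which has several annotated starts, the most upstream window is shown. No measurement of binding bears on them.

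The wider hypoxia list held calls in both directions. Of 34 genes tested, 2 rose (Bnip3 and Ddit4) and 1 fell (Arnt), 8.82% of the list against 1.13% of all genes, with a median of 0.31 and 27 positive values. In 9 genes all MHCIIlow libraries were above all MHCIIhi libraries (26.5% against 8.26%) and in 1 all were below (2.94% against 9.32%). Bnip3 stood at 4.05, 4.35 and 4.29 log2 RPKM in MHCIIhi and at 5.35, 5.59 and 5.43 in MHCIIlow libraries, a gap several times the spread within either subset. It rose by 1.22 (SE 0.20, adjusted p = 0.00532) with any single library left out, although 46.6% of its 51-base stretches occur elsewhere. Arnt, the constitutive partner of the HIF alpha subunits, stood at 3.61, 3.44 and 3.31 against 2.83, 2.49 and 2.74 and fell by 0.77 (SE 0.14, adjusted p = 0.00822, with 0.0665 without MHCIIlow V). Hilpda, a lipid droplet protein, stood at 7.75, 6.20 and 5.94 against 8.65, 7.65 and 7.07, with overlapping subsets and a difference of 1.16 (adjusted p = 0.242) that passed with the pool as a block (0.00574). Vegfa, the vascular endothelial growth factor, stood at 3.56, 2.00 and 1.71 against 3.37, 2.05 and 2.19 and overlapped fully (0.12, adjusted p = 1). Of 19 angiogenic and growth factors tested, none was called, with a median of 0.26. Spp1, osteopontin, stood at 6.62, 7.16 and 6.46 against 7.76, 9.54 and 8.12, and its difference of 1.72 passed with the block alone (adjusted p = 0.0997, and 0.0337 with the block). Thbs1 and Pgf, with differences of -0.91 and -0.74, did not pass (adjusted p = 0.412 and 0.813).

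In the arginine, urea cycle and polyamine list of 14 genes tested, Arg1 was the called member (7.14% against 1.13% of all genes), and the median was 0.28. Ass1, argininosuccinate synthase, which returns citrulline towards arginine, stood at 4.22, 5.05 and 4.44 log2 RPKM in MHCIIhi and at 5.44, 5.79 and 5.84 in MHCIIlow libraries. Its subsets did not overlap, and the difference of 1.12 did not pass (adjusted p = 0.261). Nos2, the inducible nitric oxide synthase that competes for arginine, stood at 1.00, 0.24 and 0.89 against 2.73, 2.97 and 2.21, with a difference of 1.92 (adjusted p = 0.399). On the length-scaled RPKM scale the level of Arg1 was far above that of Nos2 in all 6 libraries. Odc1, ornithine decarboxylase, and Sat1, the polyamine acetylase, differed by -0.33 and -0.51 without passing (adjusted p = 0.854 and 0.119).

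Of 27 genes of the oxidative stress response tested, 4 rose and none fell (14.8% called, against 0.567% of all genes for rises), 26 had a positive value, and the median was 0.48. In 7 genes (25.9% against 8.26%) all MHCIIlow libraries were above all MHCIIhi libraries and in 1 all were below. Nqo1 (ENSMUSG00000003849, 8:107388225-107403206), a quinone reductase and a classical target of NFE2L2, stood at -2.06, -0.54 and -1.88 log2 RPKM in MHCIIhi and at 0.55, 1.18 and 1.02 in MHCIIlow libraries, from 10 to 47 and 60 to 153 reads. It rose by 2.41, or 5.30-fold (SE 0.37, adjusted p = 0.00364), and kept its call with any library left out, at a low level. Prdx1 and Prdx6, peroxiredoxins, rose by 1.03 and 0.70 (adjusted p = 0.0352 and 0.0369), and Slc48a1, a haem transporter of the phagolysosome, rose by 0.93 (adjusted p = 0.0352). These 3 lost their calls without MHCIIhi I, MHCIIhi VII, MHCIIlow I or MHCIIlow V (0.0526 to 0.158). Hmox1, haem oxygenase 1, stood at 8.84, 9.47 and 7.84 against 10.22, 10.10 and 9.07, higher in MHCIIlow within every pool and overlapping across pools. Its difference of 1.08 passed with the block (adjusted p = 0.153, and 0.00659 with the block), as did that of Gsr, glutathione reductase (0.90, adjusted p = 0.133, and 0.00465 with the block). Nfe2l2 itself, the factor that induces these genes, lay on the other side, at 7.76, 7.44 and 7.89 against 7.27, 6.89 and 7.05, and its difference of -0.62 passed with the block alone (adjusted p = 0.067, and 0.03 with the block). With the block the list held 8 genes that rose and 1 that fell, beside 145 and 159 of the 12878 genes tested. Without single libraries its calls went from 1 (MHCIIhi I, MHCIIhi VII or MHCIIlow V) to 8 (MHCIIhi V).

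Of 19 matrix proteases and inhibitors tested, Adam8 rose and Mmp25 fell (10.5% against 1.13% of all genes), and the median was 0.32. Adam8, a membrane metalloprotease of myeloid cells, stood at 5.50, 6.17 and 5.29 log2 RPKM in MHCIIhi and at 6.95, 7.26 and 6.58 in MHCIIlow libraries and rose by 1.28 (SE 0.24, adjusted p = 0.0128, with 0.0548 to 0.0865 without MHCIIhi I, MHCIIhi VII or MHCIIlow V). Mmp25, a membrane-anchored metalloprotease, had 302, 208 and 120 reads in MHCIIhi and 30, 0 and 22 reads in MHCIIlow libraries. It fell (adjusted p = 0.0375, with 0.0564 to 0.11 without MHCIIhi I, MHCIIhi V or MHCIIhi VII), and the fitted size depends on the prior count at the library without reads. Mmp12, the macrophage elastase, stood at 6.69, 7.78 and 6.74 against 8.21, 8.77 and 8.44, with a difference of 1.40 (SE 0.54) that passed with the pool as a block (adjusted p = 0.268, and 0.00574 with the block). Mmp9, gelatinase B, stood at 7.07, 7.54 and 6.66 against 9.33, 8.87 and 7.68 (1.53, adjusted p = 0.188). Mmp13, a collagenase, and Plaur, the urokinase receptor, were among the most abundant members and overlapped between the subsets (-0.13 and -0.15, adjusted p = 1 and 0.989).

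Among markers of resident, scavenging and lipid-handling macrophages 3 genes were called. Clec4d, a C-type lectin that recognizes mycobacterial glycolipid, was the called member of 26 scavenger receptors and lectins tested (3.85% against 1.13% of all genes) and rose by 0.97 (adjusted p = 0.0458, with 0.0548 to 0.196 without each library other than MHCIIlow VII). The median of this list was 0.50. The abundant members Clec4n, Clec7a and Pf4 did not pass (0.17, -0.36 and 0.61, adjusted p from 0.724 to 0.935). Among 18 genes of lipid-associated macrophages Gpnmb and Ctsd rose (11.1% against 1.13% of all genes), with a median of 0.19. Ctsd, the lysosomal protease cathepsin D, stood at 10.16, 10.47 and 10.48 log2 RPKM in MHCIIhi and at 11.02, 11.45 and 11.39 in MHCIIlow libraries and rose by 0.92 (SE 0.17, adjusted p = 0.0108, with 0.0548 to 0.073 without MHCIIhi I or MHCIIlow V), with 32.3% of its 51-base stretches shared. Lgals3, galectin 3, stood at 7.92, 7.42 and 6.82 against 8.56, 8.65 and 8.01 and passed with the block alone (1.02, adjusted p = 0.0554, and 0.00271 with the block). Apoe, the most abundant member, overlapped (-0.30, adjusted p = 0.908). With the block 5 genes of the lipid list rose, beside 145 of the 12878 genes tested.

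Over the 26 lysosomal genes the median was -0.04, with Ctsd up and Gla down (7.69% called against 1.13% of all genes). Gla, alpha-galactosidase A, stood at 5.48, 5.08 and 5.32 against 4.79, 4.50 and 4.42 log2 RPKM and fell by 0.72 (SE 0.13, adjusted p = 0.0101, with 0.0548 to 0.0668 without MHCIIhi I or MHCIIlow V). The abundant cathepsins Ctss and Ctsb did not pass (-0.22 and -0.18, adjusted p = 0.821 and 0.811). No gene was called among 20 complement components and Fc receptors (median -0.25), and C1qa, C1qb and C1qc, the chains of the initiator C1q, differed by 0.12, -0.02 and 0.19 with overlap. None of 28 genes of gut macrophage maturation was called either, although 22 were lower in MHCIIlow cells, 13 of them without overlap (46.4% of the list against 9.32% of all genes), with a median of -0.49. Csf1r, the receptor for macrophage colony stimulating factor, stood at 9.71, 10.01 and 9.99 against 9.44, 9.54 and 9.16 and passed with the block alone (-0.52, adjusted p = 0.0853, and 0.0484 with the block). Ccr2, the monocyte chemokine receptor, stood at 2.66, 2.93 and 3.47 against 1.19, 1.75 and 1.72, with a difference of -1.47 (adjusted p = 0.0529, and 0.0201 with the block).

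Genes of antigen presentation outside class II, of costimulation and of interferon signalling had medians below 0 in MHCIIlow against MHCIIhi cells. Among 13 genes of class I presentation 1 fell (7.69% against 0.567% of all genes for falls), with a median of -0.33. In 4 of them (30.8% against 9.32% of all genes) all MHCIIlow libraries were below all MHCIIhi libraries. The called gene was H2-T23, the nonclassical molecule Qa-1, at 6.33, 5.70 and 6.01 against 5.19, 4.76 and 5.05 log2 RPKM, which fell by 1.01 (SE 0.22, adjusted p = 0.0309, with 0.0678 to 0.125 without MHCIIhi I, MHCIIhi VII, MHCIIlow V or MHCIIlow VII). The classical chains H2-K1 and H2-D1 and B2m did not pass (-0.47, -0.26 and 0.07). All 14 costimulatory and checkpoint genes had negative values, with a median of -0.47. Of these, 2 fell, Cd83 and Cd86 (14.3% against 0.567% of all genes for falls), and 6 were lower without overlap (42.9% against 9.32%). Cd86, a ligand of CD28, stood at 7.37, 7.23 and 7.05 against 6.78, 6.53 and 6.42 and fell by 0.64 (SE 0.15, adjusted p = 0.0412, with 0.0536 to 0.16 without each library other than MHCIIlow I). Vcam1, the most abundant member after Cd83, stood at 8.86, 8.69 and 8.77 against 8.11, 7.83 and 7.36 without passing (-1.01, adjusted p = 0.14). The dendritic cell markers that moved with the subset, given above, apply here too, and their part was not tested.

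Of 37 interferon response genes 2 fell (5.41% against 0.567% of all genes for falls), 36 had negative values, 14 were lower without overlap (37.8% against 9.32%), and the median was -0.51. Ifngr1, the ligand-binding chain of the interferon gamma receptor, stood at 7.57, 7.57 and 7.93 log2 RPKM in MHCIIhi and at 7.06, 7.09 and 6.97 in MHCIIlow libraries and fell by 0.65 (SE 0.15, adjusted p = 0.0381, with 0.0563 to 0.169 without each library other than MHCIIhi V). Jak1, a kinase of interferon receptors, stood at 5.08, 5.20 and 5.08 against 4.55, 4.66 and 4.61 and fell by 0.51 (SE 0.11, adjusted p = 0.0221, with 0.0506 to 0.0668 without MHCIIhi V, MHCIIhi VII, MHCIIlow V or MHCIIlow VII). For Jak1 the libraries of each subset were close together. Ifnar1, a chain of the type I receptor, differed by -0.48 (adjusted p = 0.0574, and 0.0237 with the block). The list held 4 falling genes with the block, beside 159 of the 12878 genes tested. Irf5, a factor of inflammatory gene expression and among the most abundant members, overlapped (-0.05, adjusted p = 1). Among 17 Toll-like receptors and adaptors 1 fell (5.88% against 0.567% of all genes for falls), with a median of -0.35. This was Unc93b1, the chaperone of endosomal Toll-like receptors, which fell by 0.61 (SE 0.13, adjusted p = 0.0239, with 0.0584 to 0.097 without MHCIIhi I, MHCIIhi VII, MHCIIlow V or MHCIIlow VII), from 9.44, 9.40 and 9.42 to 8.93, 8.91 and 8.59. Cd14 and Tlr2 did not pass (-0.35 and -0.29, adjusted p = 0.749 and 0.766).

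**Figure D4:**
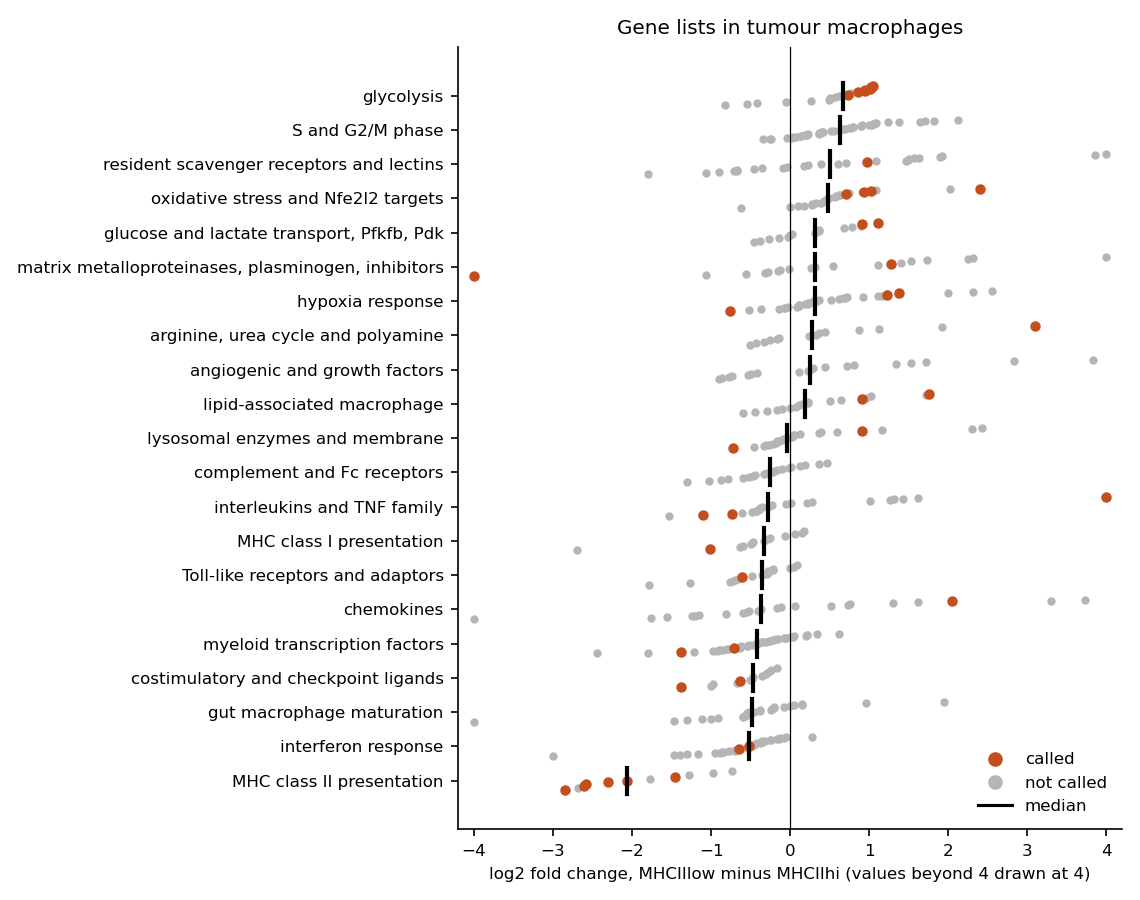
Log2 fold change (MHCIIlow minus MHCIIhi, horizontal axis) of the tested members of 21 gene lists, ordered by their median. Each point is a gene, orange where it passed the test and grey where it did not, the black bar is the median, and the 6 values beyond 4 in either direction are drawn at the edge. Medians run from -2.06 for MHC class II presentation, a list that holds the targets of the gate, to 0.67 for glycolysis.

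Of 25 interleukins, receptors and TNF family genes, Il6ra and Tnfaip3 fell and Il17a rose (12% called, against 1.13% of all genes), with a median of -0.28. Il6ra, the interleukin 6 receptor, stood at 5.02, 5.30 and 5.56 log2 RPKM in MHCIIhi and at 4.67, 4.56 and 4.45 in MHCIIlow libraries and fell by 0.73 (SE 0.16, adjusted p = 0.0325, with 0.0564 to 0.141 without MHCIIhi V, MHCIIhi VII, MHCIIlow V or MHCIIlow VII). Tnfaip3, the deubiquitinase A20, which restrains NF-kB signalling, stood at 7.44, 6.99 and 7.31 against 6.63, 6.22 and 5.56 and fell by 1.10 (SE 0.26, adjusted p = 0.0403, with 0.104 to 0.185 without MHCIIhi I, MHCIIhi VII, MHCIIlow V or MHCIIlow VII). Of 24 chemokines Cxcl3 was called (4.17% against 1.13% of all genes), and the median was -0.37. Cxcl2, Cxcl16 and Ccl4, the most abundant chemokines, did not pass (-0.11, -0.38 and -0.82, adjusted p = 1, 0.384 and 0.613).

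Il17a, the signature cytokine of type 17 lymphocytes, had 0 reads in all 3 MHCIIhi libraries and 28, 118 and 340 reads in MHCIIlow I, V and VII. Against a floor of 3 reads per library it was at least 35.8-fold higher in MHCIIlow cells. Its call (adjusted p = 0.0403) was lost with the pool as a block (0.0594) and without each library other than MHCIIlow I (0.0716 to 0.157). For markers of T, NK and innate lymphoid cells, the summed level of the 12 listed genes with values was 16.9, 23.8 and 13.7 RPKM in MHCIIhi and 26.9, 27.6 and 38.5 RPKM in MHCIIlow libraries. Il7r made up most of the sum, at 3.96, 4.33 and 3.61 against 4.59, 4.63 and 4.51 log2 RPKM. Of the 7 markers tested none was called, 5 were higher in MHCIIlow cells (4 without overlap, 57.1% against 8.26% of all genes) and 2 were lower. Their median difference was 5.29, 0.14 and 4.64 within pools I, V and VII. Cd3e, a chain of the T cell receptor complex, had 2, 8 and 4 reads in MHCIIhi and 14, 22 and 51 reads in MHCIIlow libraries, and Cd8a, a T cell coreceptor chain, had 0 reads in all 6. The part of such cells in the Il17a result was not tested.

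Among 44 myeloid transcription factors, Fosb and Runx1 fell and none rose (4.55% called, against 0.567% of all genes for falls), 16 were lower without overlap (36.4% against 9.32%), and the median was -0.42. Runx1, a regulator of haematopoietic differentiation, stood at 3.30, 3.29 and 3.35 log2 RPKM in MHCIIhi and at 2.91, 2.45 and 2.47 in MHCIIlow libraries and fell by 0.71 (SE 0.16, adjusted p = 0.0403). Its call was lost with the block (0.065) and without each library other than MHCIIlow I (0.0699 to 0.164). Junb, an AP-1 subunit of the same list, stood at 10.24, 9.56 and 10.01 against 9.61, 8.85 and 8.71 (-0.88, adjusted p = 0.0601, and 0.0304 with the block), and Nr4a1, an orphan nuclear receptor, at 8.34, 7.44 and 8.22 against 7.37, 6.66 and 6.31 (-1.22, adjusted p = 0.0874, and 0.0326 with the block). Fos and Atf3 differed by -0.63 and -0.84 without passing (adjusted p = 0.184 and 0.108). With the block 7 factors fell, beside 159 of the 12878 genes tested. The list gave 6 calls without MHCIIlow I, 4 without MHCIIhi V, 1 without MHCIIhi VII or MHCIIlow VII and 0 without MHCIIhi I or MHCIIlow V.

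None of 45 genes of S and G2/M phase tested passed, 41 had positive values, and the median was 0.64, with medians of 0.48, 0.46 and 0.94 within pools I, V and VII. In 7 genes (15.6% of the list against 8.26% of all genes) all MHCIIlow libraries were above all MHCIIhi libraries and in 1 all were below. The most abundant members, Pcna, Mcm3 and Cenpa, overlapped, with differences of 0.04, -0.05 and -0.26 (adjusted p from 0.831 to 1).

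The subset effect in tumours was set against that in LP, where 991 genes (7.70% of those tested) were called between MHCIIlow and MHCIIhi macrophages. Of these, 274 were higher and 717 lower in MHCIIlow cells, so falls were the more common direction in LP. Of the 73 genes that rose in tumours, 20 also rose in LP and 5 fell there, and of the 73 that fell, 29 also fell in LP and none rose. The difference between the effects was tested directly, and 188 genes (1.46%) passed, among them 24 of the tumour risers and 14 of the tumour fallers. This difference contains the tumour effect by which risers and fallers were called, so these counts are no separate evidence for a difference between tissues. Arg1 rose in both tissues, by 3.10 in tumour and 2.22 in LP (adjusted p = 0.0209), and its effects did not differ by the test (0.88, SE 0.81, adjusted p = 0.776). Ciita fell in both, by 2.30 and 2.74, with a difference of 0.44 (adjusted p = 0.854). Class II protein was the target of the gate in both tissues. The class II list had a median of -4.62 in LP against -2.06 in tumour, yet none of its genes passed the test of the difference, which for H2-Ab1 was 2.37 (SE 0.85, adjusted p = 0.2). The means behind H2-Ab1 were 13.24 and 8.28 log2 RPKM in LP MHCIIhi and MHCIIlow macrophages.

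The median of the 20 glycolytic enzymes was -0.11 in LP, where no enzyme rose and 1 fell, and 6 enzymes passed the test of the difference, all with a larger effect in tumour. For Pgk1 the effect was -0.08 in LP and 1.03 in tumour, a difference of 1.11 (SE 0.24, adjusted p = 0.02). For Pkm it was -0.25 and 0.85 (difference 1.10, SE 0.22, adjusted p = 0.0153). Slc16a3 fell in LP by 1.01 (adjusted p = 0.00131) and rose in tumour, a difference of 1.92 (SE 0.26, adjusted p = 0.000616). Acot7, which also fell in LP (by 0.92), differed by 2.42 (SE 0.35, adjusted p = 0.00148), and Adam8, which fell there by 0.85, by 2.13 (SE 0.34, adjusted p = 0.00355). Nqo1 (-0.37 in LP) differed by 2.78 (SE 0.52, adjusted p = 0.0113).

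For some genes the fitted effects had opposite signs, but passed the test in 1 of the tissues only. Mmp12 fell in LP by 2.40 (adjusted p = 0.0089), and the difference of its effects was 3.80 (SE 0.77, adjusted p = 0.0153). Its positive value in tumour did not pass in the main fit. Ass1 fell in LP by 2.24 (adjusted p = 0.00231), with a difference of 3.36 (SE 0.60, adjusted p = 0.00884), and likewise did not pass in tumour. Among genes that fell in tumour and were not called in LP, Cd83 (0.12 in LP, difference -1.51, adjusted p = 0.039), Fosb (0.20, difference -1.59, adjusted p = 0.0302) and Runx1 (0.52, difference -1.23, adjusted p = 0.0113) passed the test of the difference. Bnip3 and Capg rose in both tissues, with LP values of 0.83 and 1.43 and no difference by the test (adjusted p = 0.659 and 0.608). The count of 188 became 80 without MHCIIlow V and 91 without MHCIIhi VII.

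**Figure D5:**
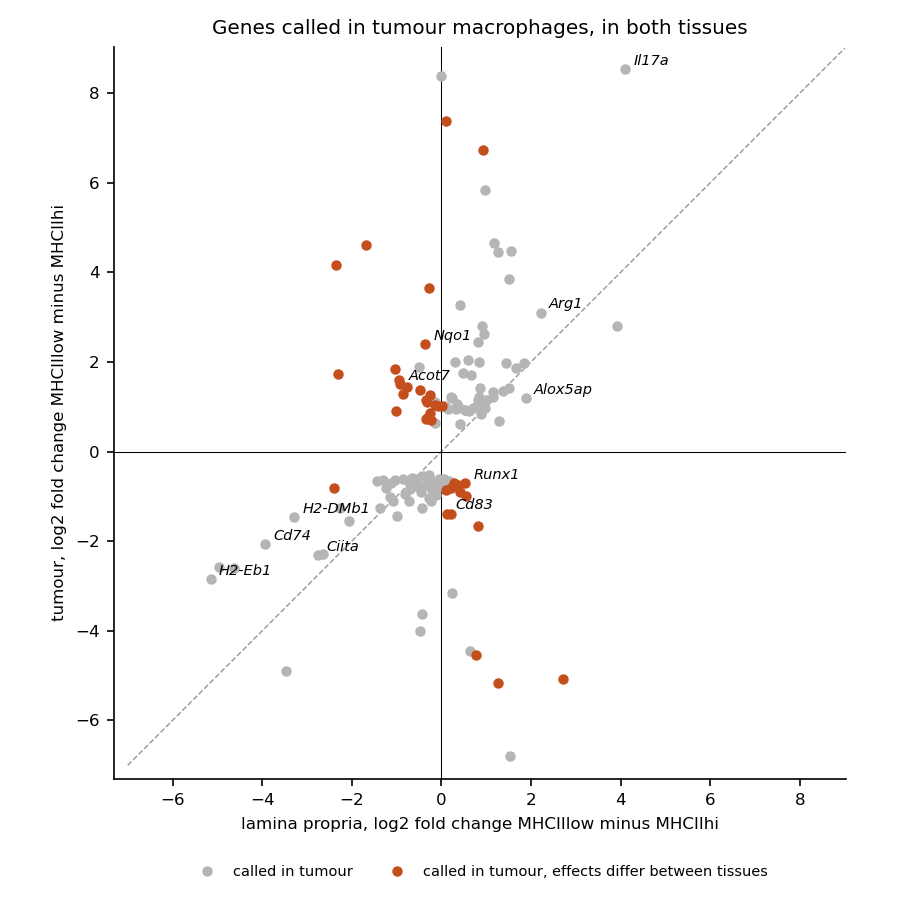
Log2 fold change (MHCIIlow minus MHCIIhi) in tumour (vertical axis) against that in LP (horizontal axis) for the 146 genes called in tumour macrophages. Orange points passed the test of the difference between tissues, grey points did not, and the dashed line marks equal effects. Class II genes such as H2-Eb1 and Cd74 lie in the lower left, Arg1 in the upper right, and Nqo1 and Acot7 above 0 in tumour and below 0 in LP.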

How the data were processed

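The authors sorted the cells by flow cytometry (after excluding CD11chi MHCIIhi dendritic cells), amplified RNA with a modified SMARTSeq v2 protocol without molecular identifiers, and sequenced 51-base paired reads. Per the methods and the submitters' processing notes, reads were aligned to GRCm38/mm10 with STAR 2.3 and counted on GENCODE genes with featureCounts 1.5, and genes averaging under 10 reads in all populations were left out. The authors deposited log2 RPKM values for 17301 genes in 24 libraries, with a prior count of 0.25 reads. From these, whole reads were recovered for 100% of 415224 values (tolerance 0.001) which gave depth, a floor of 3 reads and the input of voom. Depth was 18.6 to 35.9 M reads in the 6 libraries, and a floor covers counting error only.

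A linear model with 8 group means was fitted over the 24 libraries with limma 3.58.1 (R 4.3.3) and moderated with a trend in eBayes, for the 12878 genes that averaged 1 RPKM or more in some group, with Benjamini-Hochberg adjustment within a comparison and a threshold of 0.05, and was tested on simulated data. P-values measure the spread between pooled libraries, and an exact permutation of 3 against 3 libraries cannot give a p below 0.1. Genes named were the 12 largest rises and 12 largest falls among called genes without overlap that averaged 10 RPKM or more in the higher group, leaving out predicted genes and receptor segments, and of each list the called members or, where fewer than 3 were called, those of the highest level. The members and lists were chosen with earlier results of these data known. Ldha, Hk2, Pfkp, Mmp12, Vegfa, Hilpda, Nos2, Ass1, Nfe2l2, Hmox1, Gsr, Spp1, Lgals3, Ccr2, Nr4a1, Tes, Csf3r, Mmp8, Camp, H2-DMa, Ptgir, Alox5ap, Gadd45a, Acod1, Dyrk3, Efr3b and the marker genes given with reads were named after their values were seen. The labels call the number of a library a donor, so that pool numbers pair libraries. Deviations from the group means correlated with r of 0.25, -0.01 and 0.10 within pools I, V and VII, and from -0.22 to 0.14 between different pools. Coordinates are from GENCODE M21, and shared stretches of 51 bases were counted over its transcripts. The protocol does not mark strand. The alternatives are given with the closing observations. The values of 1 marker gene are not reported here.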

Additional observations from a re-analysis of the deposited data

Results flagged for a closer look

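The effect of the subset (MHCIIlow minus MHCIIhi, log2) differed between tumour and LP by the test of the difference in limma for 27 of the named genes. Values are the effect in tumour minus that in LP. Genes named because they were called in tumour enter this test with the effect that chose them. It was positive for Dyrk3 (7.26, with 0 reads in tumour MHCIIhi libraries), Ptgir (3.94), Mmp12 (3.80), Ass1 (3.36), Gadd45a (2.88), Nqo1 (2.78), Acot7 (2.42), Mmp13 (2.17), Adam8 (2.13), Gsr (2.00), Slc16a3 (1.92), Ddit4 (1.86), Tes (1.51), Acod1 (1.51), Pygl (1.43), Cenpa (1.34), Pfkp (1.26), Aldoa (1.19), Pgk1 (1.11), Pkm (1.10), Pgam1 (1.08), Eno1 (1.02) and Prdx6 (0.95). It was negative for Nr4a1 (-1.93), Fosb (-1.59), Cd83 (-1.51) and Runx1 (-1.23). Of these genes, Mmp13, a collagenase, overlapped between the tumour subsets (8.38, 8.69 and 8.41 against 8.54, 8.58 and 7.95 log2 RPKM) and fell in LP by 2.30, and Cenpa, a centromeric histone, likewise overlapped in tumours and fell in LP by 1.60. Tumour donors carried the Apc mutation and LP donors did not, and the dose of dextran sodium sulphate also differed by the methods, so tissue, genotype and treatment cannot be told apart.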

How the results depend on the processing

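Counts below are genes that rose and genes that fell in tumour MHCIIlow macrophages, beside 73 and 73. They were 103 and 111 with log2(RPKM + 1), 142 and 136 with quantile normalization, 123 and 174 with arrayWeights, 85 and 156 with voom, 22 and 33 with only the 12 macrophage libraries, and 2 and 2 with only the 6 libraries compared. With the pool as a replicate block they were 145 and 159, and 0 and 0 with that block and only the 6 libraries. Leaving out 1 library gave 21 to 99 that rose and 10 to 120 that fell. For the difference between tissues, 188 genes became 473 with log2(RPKM + 1), 338 with quantile normalization, 433 with arrayWeights, 539 with voom, 87 with the 12 macrophage libraries and 80 to 238 with 1 library left out, and fits of 6 libraries gave no value. Fewer libraries leave fewer degrees of freedom, and for the other settings the cause was not tested. Of 1095 values of the 61 called named genes under 18 alternatives, 728 kept the call, 367 lost it and 0 changed sign. The block ended 2 of these calls, Il17a and Runx1, and no other. Sign changes were limited to genes that were not called. With quantile normalization they were H2-D1 (0.046), Apoe (0.000), Ctss (0.081), Cxcl2 (0.076), Irf5 (0.028) and C1qb (0.202), with arrayWeights Mcm3 (0.011) and with centring on the median Pcna (-0.002). Leaving out 1 library gave values on both sides of 0 for B2m (-0.163 to 0.241), Odc1 (-0.646 to 0.055), Mmp13 (-0.245 to 0.070), Plaur (-0.516 to 0.174), Apoe (-0.570 to 0.059), Cxcl2 (-0.586 to 0.394), C1qb (-0.246 to 0.257), C1qc (-0.102 to 0.460), Pcna (-0.116 to 0.132), Mcm3 (-0.312 to 0.266) and Vegfa (-0.299 to 0.684). Of 378 list medians 5 changed sign, those of growth factors (-0.036) and arginine genes (-0.016) without MHCIIhi VII, of chemokines without MHCIIhi I (0.015), and of lysosomal genes with quantile normalization (0.082) or without MHCIIhi V (0.023). Values of genes near the floor of 3 reads depend on the prior count.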

Other observations

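Among genes outside the lists, Alox5ap, Ptgir, Acod1 and Gadd45a rose in tumour MHCIIlow against MHCIIhi macrophages and are described singly, chosen after their values were seen. Alox5ap, the protein that hands arachidonic acid to 5-lipoxygenase in leukotriene synthesis, stood at 4.75, 5.09 and 5.01 log2 RPKM in MHCIIhi and at 5.65, 6.59 and 6.18 in MHCIIlow libraries and rose by 1.19 (SE 0.27, adjusted p = 0.0377, with 0.0532 to 0.172 without each library other than MHCIIlow I). Ptgir, the prostacyclin receptor, had 4, 14 and 2 reads in MHCIIhi against 54, 106 and 44 reads in MHCIIlow libraries, and rose by 3.66 (SE 0.53, adjusted p = 0.00222) with the call kept without any single library. The levels of Ptgir were low throughout. Acod1, which makes itaconate from a citric acid cycle intermediate, stood at 4.57, 4.70 and 4.46 against 5.83, 5.81 and 5.54 and rose by 1.15 (SE 0.23, adjusted p = 0.0165, with 0.0509 to 0.0738 without MHCIIhi I, MHCIIhi VII or MHCIIlow V). The libraries of either subset were close together for Acod1. Its mean in sorted tumour neutrophils was 14.05 log2 RPKM, that of Alox5ap 10.61, and the part of neutrophil RNA in these results was not tested. Gadd45a, a gene of growth arrest and DNA damage, rose by 1.83 (SE 0.42, adjusted p = 0.0394, with 0.0509 to 0.181 without MHCIIhi VII or any MHCIIlow library).

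Of the 146 called genes, 2 also passed in the fit of the 6 libraries alone, and both had no reads in one subset. Dyrk3, a kinase that dissolves stress granules, had 0 reads in all MHCIIhi and 56, 74 and 24 reads in MHCIIlow libraries, at least 16.0-fold higher against a floor of 3 reads per library (adjusted p = 0.00648, and 0.0274 with the 6 libraries). Efr3b, which anchors a lipid kinase at the plasma membrane, had 40, 46 and 18 reads in MHCIIhi and 0 reads in all MHCIIlow libraries, at least 10.5-fold lower (adjusted p = 0.0389, with 0.0663 to 0.113 without any single library). A group without reads shows no spread in log2 values, which bears on both tests.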
